A study of Mus musculus with 5 samples.

Results

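Gata2, Tal1, Lyl1, Lmo2, Ldb1, Lmo4, Gfi1b and Zfpm1 encode the DNA-binding factors, bridging proteins and cofactors of a transcription complex of blood stem and progenitor cells. These 8 genes were taken by name from the 21887 protein-coding genes of the reference table, and all 8 were found there. The complex is built around a GATA factor and a basic helix-loop-helix factor, which bind DNA, and LIM-domain proteins, which hold the DNA-binding parts together. It is known for its part in the formation and upkeep of stem cells and, with Gata1 in place of Gata2, for erythroid and megakaryocyte genes. Several of these genes are also known for enhancers that lie many kilobases from their starts.

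The measurement was H3K27ac, the acetylation of lysine 27 on histone H3, which marks active promoters and enhancers. It was made by ChIPmentation, in which chromatin bound by the antibody is cut and tagged by the Tn5 transposase. All libraries came from mouse bone marrow cells sorted as CD45.2+, Lineage-, Sca1+ and Kit+ and labelled HSC/MPP, of the genotype labelled Mll3/4 deleted: 4 H3K27ac libraries and 1 input library. The labels name no age, no treatment and no line or Cre driver. Mll3 and Mll4 are histone methyltransferases that act mainly at enhancers, and the series asks how they bear on the upkeep of stem cells and on myeloid against B-cell fate. Every group shares the deletion, so a peak seen or not seen at a gene cannot be set against undeleted cells.

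The data were a single list of 22948 peaks for the 4 libraries together. Each peak carries the authors' signal value, a ratio of H3K27ac over background, and −log10 p- and q-values. The median signal value of the list was 3.27. No value of a single library is in the list, so there was no replicate error and no test, and the depth is unknown. A share of acetylated cells and a level of acetylation per cell cannot be told apart in such bulk libraries. A gene without a peak had none that passed the authors' calling, which does not show that acetylation was absent. Of 7 stem and progenitor marker genes, 3 had a peak within 1 kb of a gene end (Kit, Meis1 and Flt3), near the 36.2% of all protein-coding genes that had one. Cd34, Hlf, Mecom and Procr had none there. Among 13 markers of erythroid, megakaryocyte, mature lymphoid and mature myeloid cells, 1 had such a peak, the β-globin gene Hbb-bt with a signal value of 3.92.

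Acetylation was found in 4 of the 8 genes. The bridging genes Lmo4 and Ldb1, the cofactor gene Zfpm1 and, with a weak peak, Lyl1 each held at least 1 peak between their ends. Gata2, Tal1, Lmo2 and Gfi1b had no peak between their ends or within 1 kb of them. Over all protein-coding genes, 41.3% held a peak in the gene body, and 43.3% did so among the 13749 genes no shorter than Lyl1 and no longer than Zfpm1, the shortest and longest members. The members' 4 of 8 is near that background. Within 1 kb of a gene end, 2 of the 8 genes had a peak, Lmo4 and Lyl1, against 36.2% of all protein-coding genes. Among peaks whose q-value did not exceed 0.05, both still had one, against 34.4%. Where −log10 q had to reach 5, Lmo4 alone had one, against 24.0%.

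**Figure D1:**
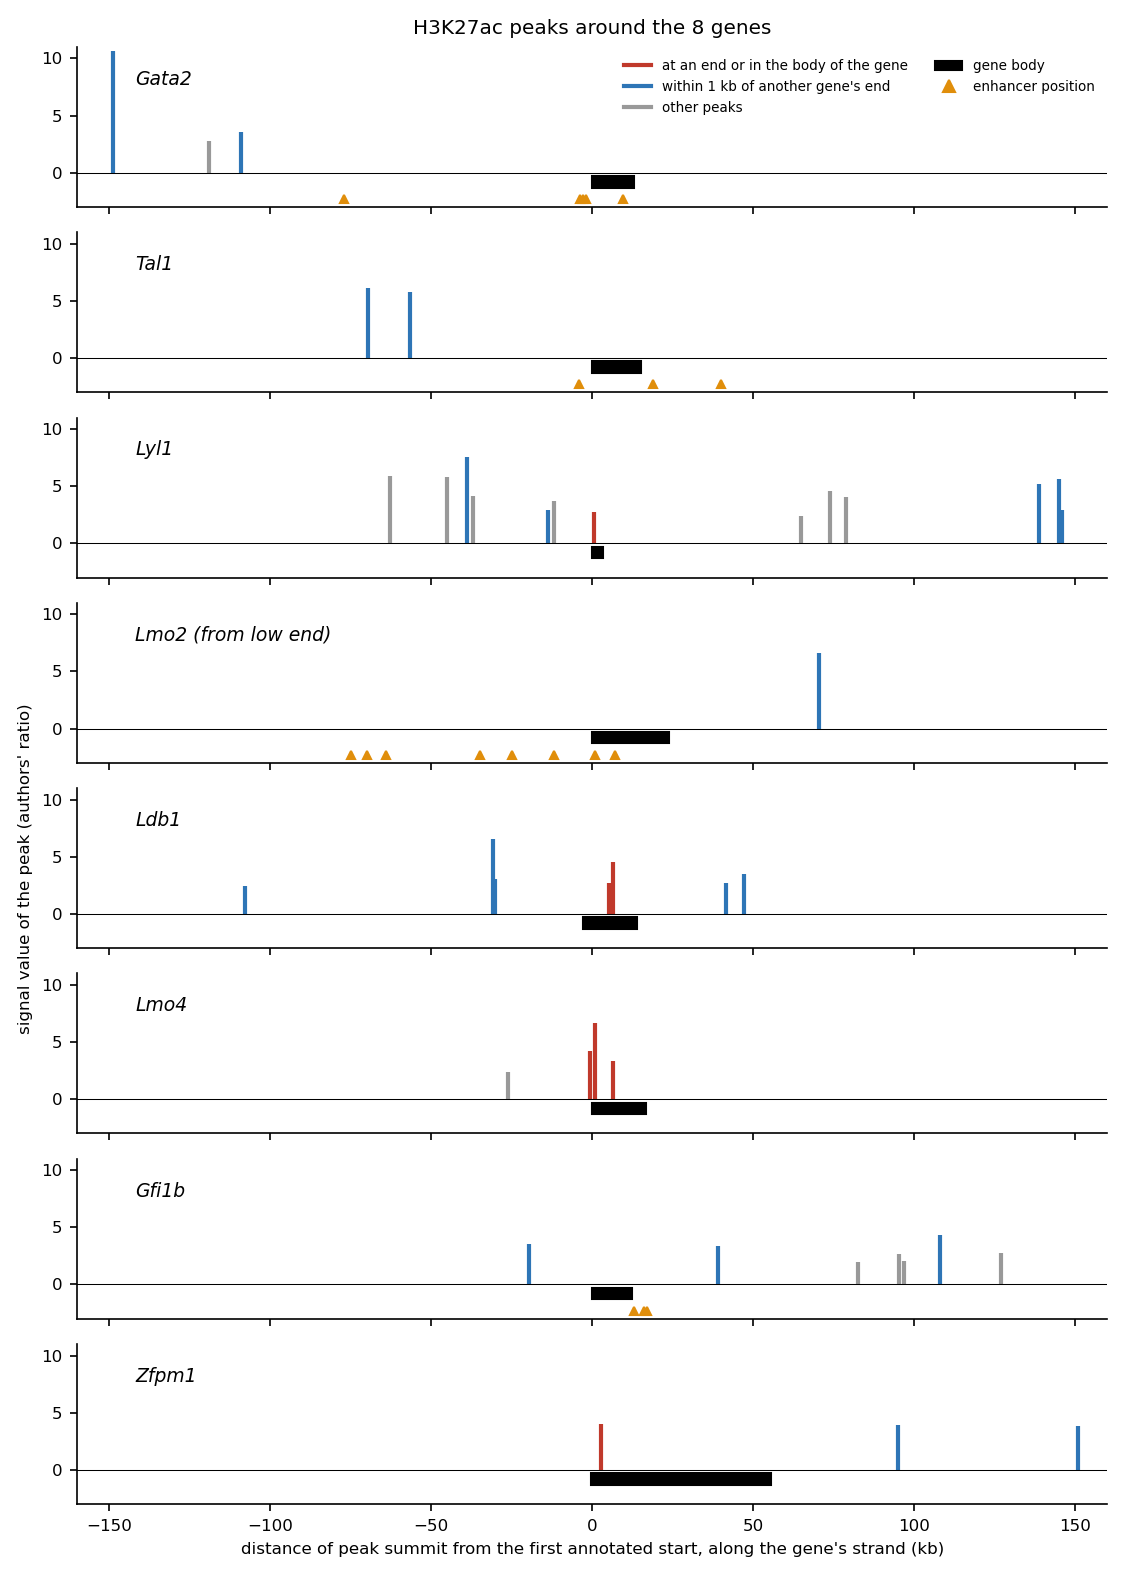
H3K27ac peaks around each of the 8 genes. The horizontal axis is the distance of the summit from the first annotated start in kb, along the gene's strand (for Lmo2, from the lower of its ends, in the direction of rising coordinates), and the height is the authors' signal value. Red peaks touch the gene or the 1 kb beyond its ends, blue peaks have their summit within 1 kb of another gene's end, grey peaks are the rest, black bars are gene bodies and orange triangles are enhancer positions. Lmo4, Ldb1, Zfpm1 and Lyl1 have red peaks, and no triangle has a peak within 2 kb.

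The sequences before 3 annotated starts are shown because they set a start flanked by peaks beside one with no peak near. All are RefSeq sequences of build GRCm38.p6, each the 250 bases before the start, read 5′ to 3′ on the gene's strand. Capitals mark CpG dinucleotides, which are dense at many promoters that carry H3K27ac. The Lmo4 stretch lies at chr3:144205256-144205505 on the minus strand, the Ldb1 stretch, before an internal start of the gene, at chr19:46039622-46039871 on the minus strand, and the Gata2 stretch at chr6:88193641-88193890 on the plus strand.
Lmo4: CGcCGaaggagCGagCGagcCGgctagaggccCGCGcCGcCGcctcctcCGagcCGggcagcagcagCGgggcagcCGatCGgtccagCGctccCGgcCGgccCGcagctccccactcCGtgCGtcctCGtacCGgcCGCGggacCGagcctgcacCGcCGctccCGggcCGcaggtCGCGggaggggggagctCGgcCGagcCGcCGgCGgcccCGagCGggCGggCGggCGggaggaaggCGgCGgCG
Ldb1: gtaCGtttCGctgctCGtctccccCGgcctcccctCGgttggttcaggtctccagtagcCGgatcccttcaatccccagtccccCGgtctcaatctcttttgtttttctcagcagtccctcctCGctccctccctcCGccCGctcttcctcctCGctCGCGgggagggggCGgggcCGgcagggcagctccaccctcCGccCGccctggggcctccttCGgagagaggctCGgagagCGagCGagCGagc
Gata2: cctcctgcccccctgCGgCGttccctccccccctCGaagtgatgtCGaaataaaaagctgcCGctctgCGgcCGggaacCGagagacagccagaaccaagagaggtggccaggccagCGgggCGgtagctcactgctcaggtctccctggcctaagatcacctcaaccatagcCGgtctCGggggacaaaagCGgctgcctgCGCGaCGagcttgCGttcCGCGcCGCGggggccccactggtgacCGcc

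Among the bridging proteins, Lmo4 had the strongest acetylation of the 8 genes. Lmo4 is a LIM-only protein that binds Ldb1, and its gene covers chr3:144188530-144205255 on the minus strand. The strongest peak, chr3:144203169-144204984, reached 6.67 in signal value and 17.1 in −log10 q, and its summit lay 736 bp inside the gene from the first start. A second peak, chr3:144205658-144206350, reached 4.19 and a −log10 q of 6.27, with its summit 579 bp before that start. These peaks stand on either side of the start, and the sequence printed above falls in the gap between them. A weaker peak in the body, chr3:144198329-144199100, had a signal value of 3.36. A further one 26.0 kb outside the gene had a signal value of 2.41 and a q-value of 0.159. A weaker strongest end peak than that of Lmo4 was found in 75.8% of the 7929 genes that had one. No other protein-coding gene lies within 100 kb of Lmo4, so among coding genes all 4 peaks had an end of Lmo4 as the nearest. The summit of the one outside, however, was 882 bp from an annotated start of Gm46828, a non-coding RNA gene.

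Ldb1 held 2 peaks, both far from the gene's outer ends and both beside an internal start. Ldb1 binds LIM domains and pairs with itself, which lets it join distant regulatory elements. Its gene covers chr19:46031525-46048145 on the minus strand, with 3 starts in the promoter table. The stronger peak, chr19:46038333-46039384, had a signal value of 4.53 (−log10 q 7.63). The other, chr19:46039922-46040734, had a signal value of 2.69 (−log10 q 1.67). The middle start, at position 46039621, lies in the gap between them, 237 bp from the nearer peak. The first start, at position 46045311, was 4.58 kb from the nearest peak although its window holds 41 CpG dinucleotides, more than 95.5% of starts. Counting a peak within 1 kb of any annotated start, in place of the gene's ends, therefore added Ldb1 to Lmo4 and Lyl1, giving 3 of the 7 members in the promoter table. The share over all 17492 protein-coding genes in that table was 38.0%. Lmo2 is not in the promoter table.

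At 2 of the members' 13 annotated starts, the first of Lmo4 and the middle one of Ldb1, a peak stood within 1 kb on both sides and none overlapped the 300-base window from 250 bases before the start to 50 after. Over all 21263 starts of protein-coding genes, 1.72% had this arrangement. Counted over starts with a peak within 1 kb, it was 2 of 5 for the members and 4.59% of 7957 for all genes. No peak overlapped the 300-base window of any of the 13 starts, against 25.7% of all starts that had one there. The arrangement was not among the planned counts and was taken from these same members, so the shares over all starts are no independent comparison. With 13 starts in 7 genes, some sharing a gene and peaks, these counts are a description.

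Lmo2, the LIM-only protein that joins Tal1 and the GATA factor and binds Ldb1, had no peak in its gene, chr2:103957903-103981878. The nearest peak, chr2:104027831-104029306, lay 46.0 kb away with a signal value of 6.59, and its summit was 71 bp from an end of the gene 4931422A03Rik. It was the single peak within 100 kb of Lmo2. On the other side the nearest peak was 160 kb away.

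Of the helix-loop-helix pair, Lyl1 had a weak peak and Tal1 none. Tal1 pairs with E proteins to bind E-boxes, and Lyl1 is its closest relative and can stand in for it in adult stem cells. The Lyl1 peak, chr8:84701889-84702157, is 269 bp wide, with a signal value of 2.72, −log10 p of 4.04 and a q-value of 0.0211. It starts 466 bp inside the gene (chr8:84701423-84704716, plus strand), with its summit 638 bp after the annotated start. A weaker strongest end peak than this was found in 6.51% of the genes that had one, so Lyl1 and Lmo4 sit far apart in that range. Around Lyl1 there were 9 further peaks within 100 kb, but each had another gene's end nearest. The strongest, chr8:84660226-84663262, had a signal value of 7.56 and a summit 286 bp from an end of Ier2, an immediate-early gene. The peaks chr8:84774577-84776799 (4.54) and chr8:84779764-84781289 (4.07) each cover an annotated start of Nfix, the neighbouring gene that encodes a nuclear factor I protein.

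Tal1 lies in a long stretch without peaks, and the next one on the high side was 666 kb away. The gene covers chr4:115056426-115071755 on the plus strand, with 2 annotated starts. This stretch spans 737 kb and holds 12 whole protein-coding genes, Tal1 and Pdzk1ip1 among them, the others all of the Cyp4 cytochrome P450 family. Both peaks within 100 kb lay on the low side, at starts of other genes. One covered the start of Stil, a centriole gene, with a signal value of 5.75, 55.4 kb from Tal1. The other covered the start of Cmpk1, a nucleotide kinase gene, with a signal value of 6.09, 68.7 kb away.

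Gata2 was the member farthest from any peak. It encodes the zinc-finger GATA factor of stem and progenitor cells and covers chr6:88193891-88207032 on the plus strand. No peak lay in the gene or within 100 kb. The other 7 members each had at least 1 peak in that range, as did 77.0% of all protein-coding genes. The nearest peak, chr6:88084602-88085099, lay 109 kb away with a signal value of 3.55, at an end of Rpn1, a gene of protein glycosylation. On the high side the nearest peak was 239 kb away. Over all protein-coding genes, 22.0% were at least as far from a peak as Gata2.

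**Figure D2:**
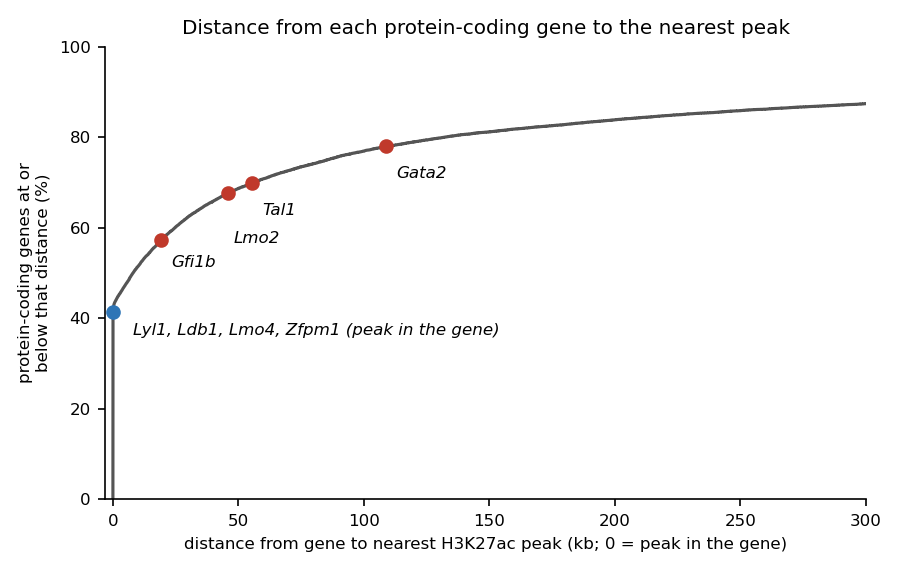
Share of protein-coding genes, in percent, whose nearest H3K27ac peak lies at or below the distance on the horizontal axis, in kb, with 0 for a peak in the gene. Red points are Gfi1b, Lmo2, Tal1 and Gata2, which have no peak in the gene and lie 19.1 to 109 kb from one, and the blue point stands for the 4 members with a peak in the gene.

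Gfi1b and Zfpm1 encode cofactors of the complex. Gfi1b is a zinc-finger repressor that recruits the demethylase Kdm1a, and its gene covers chr2:28609450-28621982 on the minus strand. It had no peak in the gene. The nearest, chr2:28641038-28642044, lay 19.1 kb away with a signal value of 3.58 and covered the start of Tsc1, a growth-control gene. The strongest within 100 kb, chr2:28513541-28514409, had a signal value of 4.36 and lay at an end of Ralgds. The 3 distal peaks near Gfi1b had signal values from 2.00 to 2.71, below the median of the list. Over all protein-coding genes, 42.8% were at least as far from a peak as Gfi1b, 32.3% as far as Lmo2 and 30.1% as far as Tal1.

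Zfpm1, or FOG1, binds GATA factors through its zinc fingers and is needed for the erythroid and megakaryocyte lineages. Its gene, chr8:122281856-122337862 on the plus strand, held 1 peak, chr8:122284436-122285757, with a signal value of 4.01 (−log10 q 5.62). The summit lay 2.62 kb inside the gene from the annotated start. The peak also covers an annotated start of Gm39269, a non-coding RNA gene on the opposite strand, so it cannot be given to one of the 2 genes. The next peak was 38.9 kb beyond the high end, at an end of Gm39270, with a signal value of 3.92.

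Near the limits used, the Lmo4 peak outside the gene began 403 bp beyond the end and the Lyl1 peak 466 bp within it, while the next closest, at Zfpm1, began 2580 bp from an end. The farthest peak inside 100 kb lay 95.0 kb from Gfi1b, and the nearest beyond it lay 105 kb from Ldb1.

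Most peaks around the 8 genes belonged by position to their neighbours, a count with no share of such peaks over all genes beside it. Of 32 peaks in the genes or within 100 kb, 7 lay in a member or within 1 kb of its ends. Of the 25 in the flanks, 14 had their summit within 1 kb of another protein-coding gene's end and a further 10 had another gene's end nearest, which leaves the weak one near Lmo4, itself closer to the non-coding gene Gm46828. Counted for the protein-coding gene with the nearest end, 4 of the 8 members had any peak within 100 kb, in place of 7. By the same rule 43.4% of all protein-coding genes had one, so the members' count is near that background. The Zfpm1 peak in this count also covers a start of the non-coding gene Gm39269. Distal peaks, with summits over 1 kb from every protein-coding gene end, numbered 7 around Lyl1, 3 around Gfi1b, 2 each around Ldb1 and Lmo4, 1 around Zfpm1 and 0 around Gata2, Tal1 and Lmo2. Internal starts and non-coding genes were not considered for this. Both Ldb1 peaks, the Zfpm1 peak and the outer Lmo4 peak had summits within 1 kb of an annotated start. So did the peaks that cover Nfix starts near Lyl1. The median was 1.5 over the members and 1 over all protein-coding genes. Both medians were 0 where −log10 q had to reach 5. Several of these counts were lower in other settings: with q-values of at most 0.05 Gfi1b had 1 and Lmo4 had 1, and within 50 kb Lyl1 had 3 and Gfi1b had 0. Of the 32 peaks, 4 had a q-value above 0.05, against 21.2% of the whole list.

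Enhancers of these genes known from other blood cells were then looked for at 19 positions of Gata2, Tal1, Lmo2 and Gfi1b, counted in kb from the first annotated start along the strand. No peak lay within 2 kb of any of them, nor within 5 kb. Over all genes in the promoter table, the same offsets had a peak within 2 kb in 9.80% of 332348 gene and offset pairs. The genes looked at are the members without a peak in the gene or within 1 kb, so this share is no matched comparison. For Gata2, Tal1 and Gfi1b, and for Lmo2 counted from its low end, the lack of a peak at these places restates the distances given above. Counted from its high end, the same holds for all Lmo2 positions but those at -75, -70 and -64 kb, which lie beyond the nearest peak. The Gata2 position at -77 kb, an element of stem and progenitor cells, was 31.8 kb from the nearest peak, and the one at 9.5 kb, inside the gene, was 118 kb from it. The Tal1 positions at -4, 19 and 40 kb were 51.4, 74.4 and 95.4 kb from a peak. All 3 fall in the long stretch without peaks described above. The Gfi1b positions at 13, 16 and 17 kb lay 21.9 to 25.9 kb from a peak. For Lmo2 the 8 positions were tried from both ends of the gene. They lay 62.9 to 105 kb from a peak counted from the low end and 11 to 53.0 kb counted from the high end. The positions are rounded, rest on general knowledge and may refer to other starts than the first, on which the printed distances depend. They cover these places and no other enhancer.

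The Tal1 and Gfi1b starts are shown for the GATA letters before them and, at Gfi1b, E-boxes, since neither had a peak within 1 kb. Both are RefSeq sequences of build GRCm38.p6, the 250 bases before the first start, 5′ to 3′ on the gene's strand. Tal1 is at chr4:115056176-115056425 on the plus strand and Gfi1b at chr2:28621983-28622232 on the minus strand. Capitals mark GATA on either strand and the E-box CANNTG, of which the Tal1 stretch holds 0.
Tal1: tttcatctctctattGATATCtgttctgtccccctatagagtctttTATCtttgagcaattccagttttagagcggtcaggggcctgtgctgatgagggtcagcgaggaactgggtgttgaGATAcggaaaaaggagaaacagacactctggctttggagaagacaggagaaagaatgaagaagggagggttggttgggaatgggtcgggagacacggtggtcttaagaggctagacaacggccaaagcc
Gfi1b: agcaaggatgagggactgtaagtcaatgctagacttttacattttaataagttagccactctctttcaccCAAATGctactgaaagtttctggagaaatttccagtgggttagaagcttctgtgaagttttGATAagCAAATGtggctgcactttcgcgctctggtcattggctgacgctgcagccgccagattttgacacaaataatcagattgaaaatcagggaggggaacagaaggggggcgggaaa

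In the 300-base windows, the letters GATA occurred on either strand at 3 of the 13 member starts, against 53.2% of 21263 starts of protein-coding genes. The third Ldb1 start, at position 46037070 and 1.26 kb from a peak, had 5 matches. Tal1 had 4 before its first start, where a reverse match overlaps a forward one, and Gfi1b had 1. E-boxes occurred at 7 of the 13 starts (69.0% of all starts), and the ETS core GGAA at all 13 (95.7%). The RUNX letters TGTGGT (15% of all starts) and an E-box followed by 7 to 9 free bases and GATA (1.49%) were at none of the 13. These matches describe letters in the windows and were not tied to binding.

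The CpG counts of members with and without a peak overlapped. The first starts of Gata2, Zfpm1, Ldb1 and Lmo4 had 32, 37, 41 and 52 CpG dinucleotides in the 300-base window, against a median of 13 over all starts. Of these 4 starts, that of Lmo4 had a peak within 1 kb. Among all 2678 starts, first or later, with at least as many CpG dinucleotides as the first Gata2 start, 63.6% had one. Just below that limit, the later Lmo4 starts, with 30 and 31, had a peak within 1 kb, and the second Gata2 start, with 29, had none. Lyl1, with 7, had a peak, and Gfi1b, also with 7, had none. The first Tal1 start had 11.

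**Figure D3:**
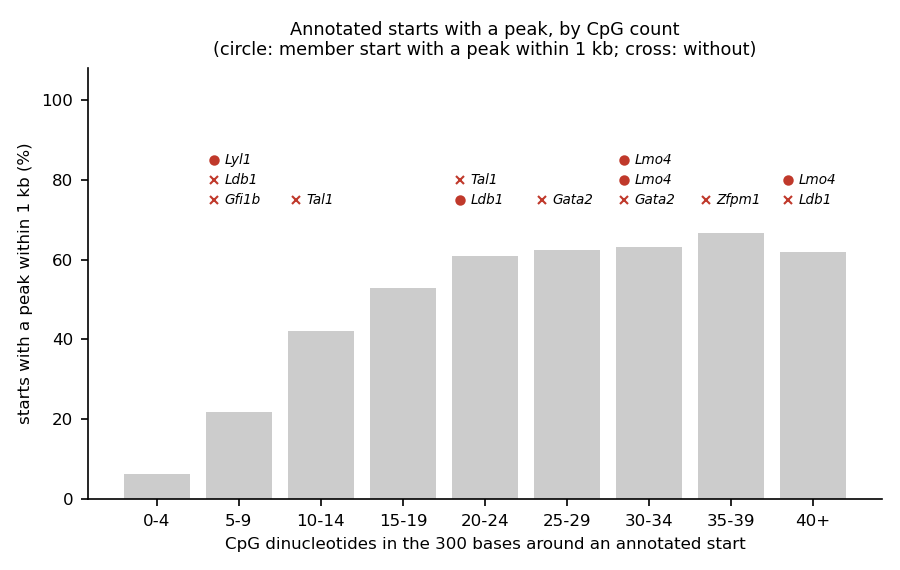
Share of annotated starts with an H3K27ac peak within 1 kb, in percent, by the number of CpG dinucleotides in the 300-base window (grey bars, over all starts of protein-coding genes in the table). Names above the bars mark the 13 member starts in the bin of their CpG count, at heights that carry no value; circles have a peak within 1 kb and crosses have none. The share rises from 6.40% below 5 CpG dinucleotides to 60.9% at 20 to 24. In bins where most starts have a peak, both Gata2 starts, the second Tal1 start and the first Zfpm1 and Ldb1 starts are crosses. The Lmo4 starts and the middle Ldb1 start are circles there.

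Other genes of the pathway were described from 3 lists. Of 16 partners and cofactors, 13 had a peak at an end, against 36.2% of all protein-coding genes, and 15 had one in the body, against 41.3%. Each of the 16 had one or the other, against 43.8% of all protein-coding genes. The partners are 10.9 to 345 kb long. Among the 13032 genes in that range, 51.7% had a peak in the body and 54.4% one there or at an end. The share with a peak at an end was not set against that range. The median of the strongest signal value at an end was 4.25 over the 13 partners with one and 4.71 over all protein-coding genes with one. The strongest at an end were Runx1 (10.1), the partner factor with a Runt domain, Rcor1 (7.77), a CoREST protein that works with Kdm1a, and Tcf12 (6.86), an E protein that pairs with Tal1. The 3 without a peak at an end were Fli1 and Erg, ETS factors that share many sites with the complex, and Ssbp3, which protects Ldb1 from breakdown. All 3 had peaks in the body: 17 in Fli1, the strongest with a signal value of 8.48, 20 in Erg (16.4) and 4 in Ssbp3 (3.79). Runx1 held 20 peaks in its body. Runx1, Fli1 and Erg are long genes, of 225, 121 and 227 kb, while the members span 3.29 to 56.0 kb, so their numbers of body peaks were not set against those of the members.

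Of the 8 paralogues of the members, 1 had a peak at an end and 2 in the body, against 36.2% and 41.3% of all protein-coding genes. Gfi1, the relative of Gfi1b, had 2 peaks at its ends, the stronger with a signal value of 4.25. Gata1, Gata3, Tal2, Lmo1, Lmo3, Ldb2 and Zfpm2 had none at an end. Gata3, a factor of T-cell development, had 3 peaks in its body, the strongest with a signal value of 5.94. Lmo1, Lmo3, Ldb2 and Zfpm2 had no peak within 100 kb, as did 23.0% of all protein-coding genes. Gfi1 and Gata3 thus had peaks in the gene where the members Gfi1b and Gata2 had none, while Gata1 also had none. The reverse held for Ldb1 against Ldb2, Zfpm1 against Zfpm2, and Lmo4 against Lmo1 and Lmo3.

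Among 10 known targets of the complex in stem and erythroid cells, 5 had a peak at an end, against 36.2% of all protein-coding genes. The strongest were at Meis1 (12.2), a homeobox gene of stem cells, Kit (5.66), the receptor used in the sort, and Hhex (4.56), a homeobox gene of early progenitors. The other two were Spi1 (4.11), a myeloid and lymphoid ETS factor, and the erythroid gene Hbb-bt (3.92). The 5 without one were the erythroid genes Epor, Klf1 and Nfe2, the megakaryocyte gene Itga2b and the progenitor gene Cd34, and none of the 5 had a peak in the body either. No control genotype stands beside these counts, and what sets them was not tested.

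**Figure D4:**
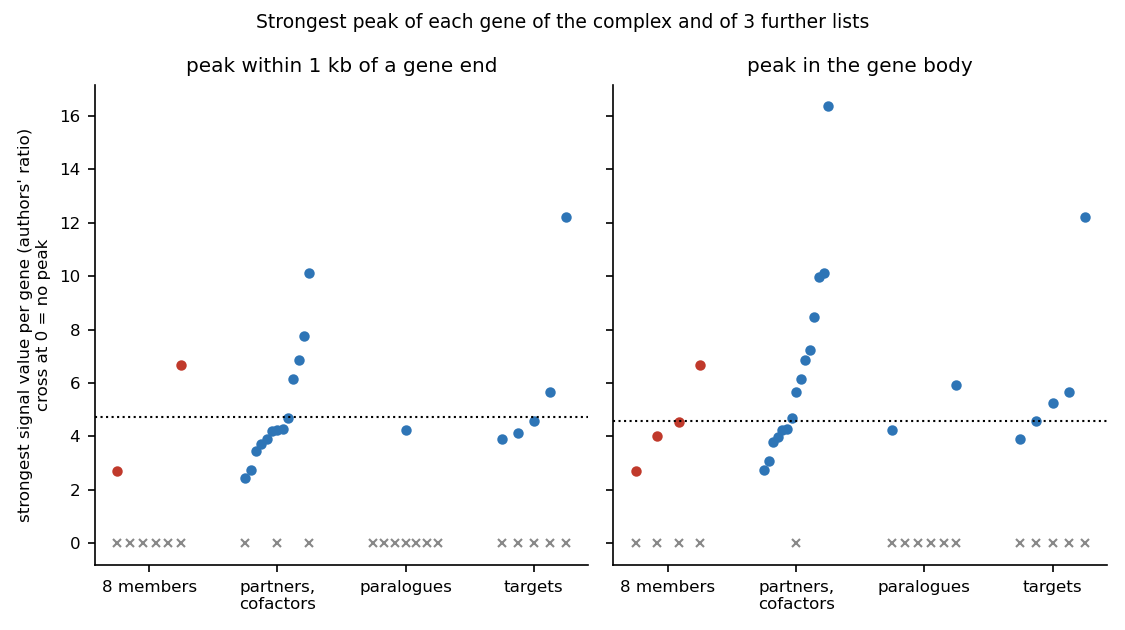
Strongest signal value per gene, as the authors' ratio, for peaks within 1 kb of a gene end (left) and in the gene body (right). Each point is a gene of the 8 members (red) or of the partner and cofactor, paralogue or target list (blue), crosses at 0 are genes without such a peak, and the dotted line is the median over all protein-coding genes with one (4.71 at an end, 4.59 in the body). The highest points are Erg in the body (16.4) and Meis1 (12.2); of the members, Lmo4 lies above the line in both panels.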

How the data were processed

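H3K27ac ChIPmentation and input libraries were summarised by the authors in 1 deposited peak list, without a header and without values of single libraries. BWA, MACS2 and build mm10 are named in the submitters' processing notes, without versions. The list is labelled as an overlap, optimal set of peaks, and filters are not otherwise given in the sources used here. Per the order of its columns, the deposited list holds a score, a signal value read as the authors' enrichment ratio, and for each peak a −log10 p-value and a −log10 q-value from the authors, with positions and summits. They were used only to describe and rank peaks within the list.

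Gene positions, starts, strands and promoter sequences came from RefSeq tables of GRCm38.p6, the assembly named mm10 in the notes. Exons were not used here, so peaks were not placed in exons or introns. Printed coordinates are 1-based. A peak was at an end when it overlapped a window of 1 kb before and after that end, and in the body when it overlapped the gene. Placement was written in Python 3.11.15 with pandas 2.3.3 and tested on simulated peaks.

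All 42 symbols of the members and further lists were matched; 1 gene of the planned lists is not reported here. The genes named are the members, and of each list the 3 strongest at an end and those without a peak there; marker genes, neighbours and the genes with body peaks were named besides. The members and lists were chosen with earlier results of these data known. A planned comparison of protein pairs was not run. Alternatives were other thresholds, windows, placements and merging. With no replicate values, no test was made.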

Additional observations from a re-analysis of the deposited data

How the results depend on the processing

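Of 44 recomputed summary values, 36 stayed within 1.5 times the value reported. With −log10 q held to 5 or more, or the signal value to 4 or more, the members with a peak at an end went from 2 to 1, since the Lyl1 peak was lost, and the median of distal peaks per member from 1.5 to 0. That median was 0.5 with a flank of 50 kb. Counting only the protein-coding gene with the nearest end gave 4 members with a peak within 100 kb in place of 7. The share of all protein-coding genes was then 43.4% in place of 77.0%. The members' median of distal peaks was 0. The median of the strongest signal value within 100 kb was 4.27 over those 4 members, in place of 6.55 over the 7. These moves follow from fewer peaks being counted. The enhancer positions with a peak stayed at 0 in each setting tried. This was fixed in advance, since the closest peak to any position lay 11 kb away and no setting looked farther than 5 kb. The genes of the 3 further lists with a peak at an end ranged from 13 to 21 of 34 around 19. The share of all protein-coding genes ranged from 23.2% to 39.3% around 36.2%. Any annotated start in place of the gene ends, chosen after the data were seen, gave 3 members. Of 56 recomputed counts of distal peaks around single genes, 13 moved, all to lower counts, at Gfi1b, Lyl1, Lmo4 and Ldb1. In each setting that moved the members' median, that of all protein-coding genes was 0 in place of 1. The depth of the libraries is unknown, so how many weak peaks near Lyl1, Ldb1 and Gfi1b would be kept at greater depth cannot be said. A pooled list allows no library to be left out. No paired analysis was possible because all libraries were pooled in 1 list.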
